A study of Mus musculus with 4 samples.

Results

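A set of 8 transcription regulators of blood stem cells was followed through 4 single-cell libraries: Mecom, Hlf, Meis1, Prdm16, Mllt3, Gata2, Tal1 and Erg. They were chosen by name, as factors that maintain or mark the stem cell, and are 8 of the 32285 genes counted. Each library held mouse bone marrow cells sorted as CD45.2+ (the donor side of a transplant), lineage negative, Sca1+ and Kit+. This sort, called LSK, gathers stem cells and early multipotent progenitors. The marrow was taken 10 weeks after transplantation. There was 1 library of control cells, 1 labelled Mll3 deleted, 1 labelled Mll4 deleted and 1 labelled deleted for both, called below the Mll3-label, Mll4-label and double-label libraries. Mll3 and Mll4 are the products of Kmt2c and Kmt2d, histone methyltransferases of enhancers. The deleting Cre, its promoter, the strain, the host and the number of mice per library are not given in the sources used here. The cells were also stained with 6 DNA-tagged antibodies, among them CD150 and CD48, which split LSK cells into stem cells (CD150+CD48-) and progenitors. With 1 library per group, no difference below has a replicate check and none was tested. Every interval covers counting error at the 95% level only.

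As background, these factors work largely together. Tal1, a basic helix-loop-helix protein, and Gata2, a zinc-finger protein, sit with Lmo2, Lyl1, Erg (an ETS-family factor) and Runx1 on shared enhancers of stem and progenitor cells. Mecom and Prdm16 are paralogous zinc-finger proteins needed to keep stem cells, Hlf is a leucine-zipper factor that marks the most immature cells, and Meis1 is a homeodomain partner of Pbx and Hoxa9. Mllt3, also called AF9, reads acylated histones and recruits Dot1l and the elongation machinery. Several of them have other roles: Gata2 and Tal1 are also active in mast cells, and Erg in early B cells, while most are shut off as B-lineage cells form.

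The libraries gave 7274 control, 6101 Mll3-label, 4793 Mll4-label and 4748 double-label cells, with 50792614 to 120700343 unique molecular identifiers (UMIs, 1 per captured transcript) and medians of 8920 to 21400 UMIs per cell. The Mll4-label library stood apart in that 62.2% of its barcodes passed the limits on genes and mitochondrial UMIs, with 2634 under 1000 genes, where 92.4% to 94.7% passed in the others, with 224 to 280 under it. The labels were first set against the targeted genes. Levels are given as CPM, the UMIs of a gene per 1000000 UMIs of the cells counted. Kmt2c was at 68.9 CPM in the control, 35.3 in the Mll3-label, 61.3 in the Mll4-label and 42.3 in the double-label library. Kmt2d was at 24.6, 21.6, 22.6 and 25.4 in the same order, so it was at most 1.09-fold below the control where Mll4 deletion is labelled. A 3′ tag can lie outside a deleted part, so this neither checks nor breaks the labels, and the libraries are named here by their labels. The 6 LSK markers (Kit, Ly6a, Ptprc, Cd34, Flt3 and Cd27) were detected in all 4 libraries, at a summed 666 to 1048 CPM, lowest in the double-label library. At least 10 UMIs of them were held by 76.8% of control, 70.9% of Mll3-label, 88.3% of Mll4-label and 25.5% of double-label cells, at depths that were not matched. The double-label library stood apart: 4724 of its 4748 cells (99.5%) held at least 10 UMIs of 8 B-lineage markers, against 47 control, 228 Mll3-label and 114 Mll4-label cells. The Mll4-label library held 691 cells with at least 10 UMIs of 5 mast-cell markers and 893 with 5 macrophage-monocyte markers, against 8 and 15 control cells. Between 9 and 22 cell barcodes were shared by any pair of libraries.

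The stretch just before the transcription start is shown for the 4 factors that were almost missing from the double-label library (Mecom, Hlf, Gata2 and Tal1) and for 2 that were not (Meis1 and Erg). The printed windows are not matched. They hold 120 bases before the first listed start, except that Tal1 is printed over 250 bases to show its match. Erg is printed at the only one of its 3 starts with a match. The sequences are from RefSeq promoters on GRCm38.p6, 5′ to 3′ on the gene's strand. The windows are chr3:30509760-30509879 (Mecom, minus strand), chr11:90390918-90391037 (Hlf, minus), chr6:88193771-88193890 (Gata2, plus), chr4:115056176-115056425 (Tal1, plus), chr11:19018970-19019089 (Meis1, minus) and chr16:95459349-95459468 (Erg, minus, the third listed start). Capitals mark a GATA site (AGATAA), an ETS core (GGAAGT) or an E-box (CAGCTG) on either strand, searched over 250 bases before each start. A match on the other strand is printed as its reverse complement, and no matches overlapped.
Mecom: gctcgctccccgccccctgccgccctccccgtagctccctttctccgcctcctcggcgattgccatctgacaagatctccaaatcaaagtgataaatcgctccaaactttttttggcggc
Hlf: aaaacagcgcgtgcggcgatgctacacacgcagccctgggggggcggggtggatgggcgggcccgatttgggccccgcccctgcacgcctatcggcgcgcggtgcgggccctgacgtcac
Gata2: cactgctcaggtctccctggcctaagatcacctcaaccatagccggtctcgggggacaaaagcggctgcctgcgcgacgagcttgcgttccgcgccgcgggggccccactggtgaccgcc
Tal1: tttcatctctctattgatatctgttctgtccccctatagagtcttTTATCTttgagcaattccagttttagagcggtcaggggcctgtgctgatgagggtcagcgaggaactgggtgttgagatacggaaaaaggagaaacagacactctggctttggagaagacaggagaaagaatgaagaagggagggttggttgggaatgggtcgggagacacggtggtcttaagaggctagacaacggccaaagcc
Meis1: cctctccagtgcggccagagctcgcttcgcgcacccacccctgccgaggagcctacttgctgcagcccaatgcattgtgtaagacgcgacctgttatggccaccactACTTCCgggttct
Erg: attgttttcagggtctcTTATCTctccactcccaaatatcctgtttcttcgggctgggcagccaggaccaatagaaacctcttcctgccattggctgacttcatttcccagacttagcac

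Matches were few in both groups. Tal1 had a GATA site 205 to 200 bases before its first start, Erg one 103 to 98 bases before the third of its starts, Meis1 an ETS core 13 to 8 bases before its start, and Mllt3 an E-box 202 to 197 bases before its first start. None of the 3 motifs, in the exact letters searched, was found before the listed starts of Mecom, Hlf, Prdm16 and Gata2. Other spellings of such sites were not searched. Over 32851 promoters of the same length, 9.99% held the GATA site, 19.7% the ETS core and 13.0% the E-box. A match describes letters only, and its absence from this window says nothing of a factor's binding. By the annotation (GRCm38), Mecom spans bases 29951296 to 30548008 of chromosome 3 and overlaps the antisense gene Mecomos. Meis1 (chromosome 11, 18879817 to 19018985) overlaps Gm16140 and Gm16141, and Prdm16 (chromosome 4, 154316125 to 154636873) overlaps Gm13133, Gm13134 and B230104I21Rik. Whether the counting used strand is not given in the sources used here. Mecomos held 156 control UMIs against 10665 of Mecom, Gm16140 1856 and Gm16141 1688 against 22512 of Meis1.

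The partner pair of the stem-cell enhancer complex, Gata2 and Tal1, and the immature-cell factors Mecom and Hlf were almost missing from the double-label library. Gata2 was at 85.6 CPM in the control, 110 in the Mll3-label, 80.5 in the Mll4-label and 1.24 in the double-label library. Tal1 was at 48.1, 49.5, 32.4 and 0.768 in the same order. Each of these 2 genes was thus of one order of magnitude in 3 libraries and far lower in the fourth. Mecom was at 87.5, 102, 107 and 1.004, and Hlf at 291, 271, 136 and 2.21. The log2 ratios of the double-label library to the control, after adding 0.5 UMIs, were -6.10 for Gata2, -5.95 for Tal1, -6.43 for Mecom and -7.04 for Hlf. That is 68.4-fold, 61.8-fold, 86.3-fold and 131-fold lower, resting on 63, 39, 51 and 112 UMIs.

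The other 4 factors did not follow. Meis1 was at 185 CPM in the control, 233 in the Mll3-label, 79.6 in the Mll4-label and 55.6 in the double-label library, which is 3.33-fold below the control. Prdm16 was at 10.9, 12.2, 5.19 and 2.80, or 3.88-fold below. These 2 were reduced in that library but were still counted across its cells. Mllt3 was at 53.6, 76.0, 39.6 and 63.9, a log2 ratio of 0.25 (0.19 to 0.31) in the double-label library. Erg was at 81.2, 88.5 and 46.1 in the first 3 libraries and at 195 in the double-label one, 2.40-fold above the control. Erg was the only member that was at least 2-fold higher there than in the control.

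**Figure D1:**
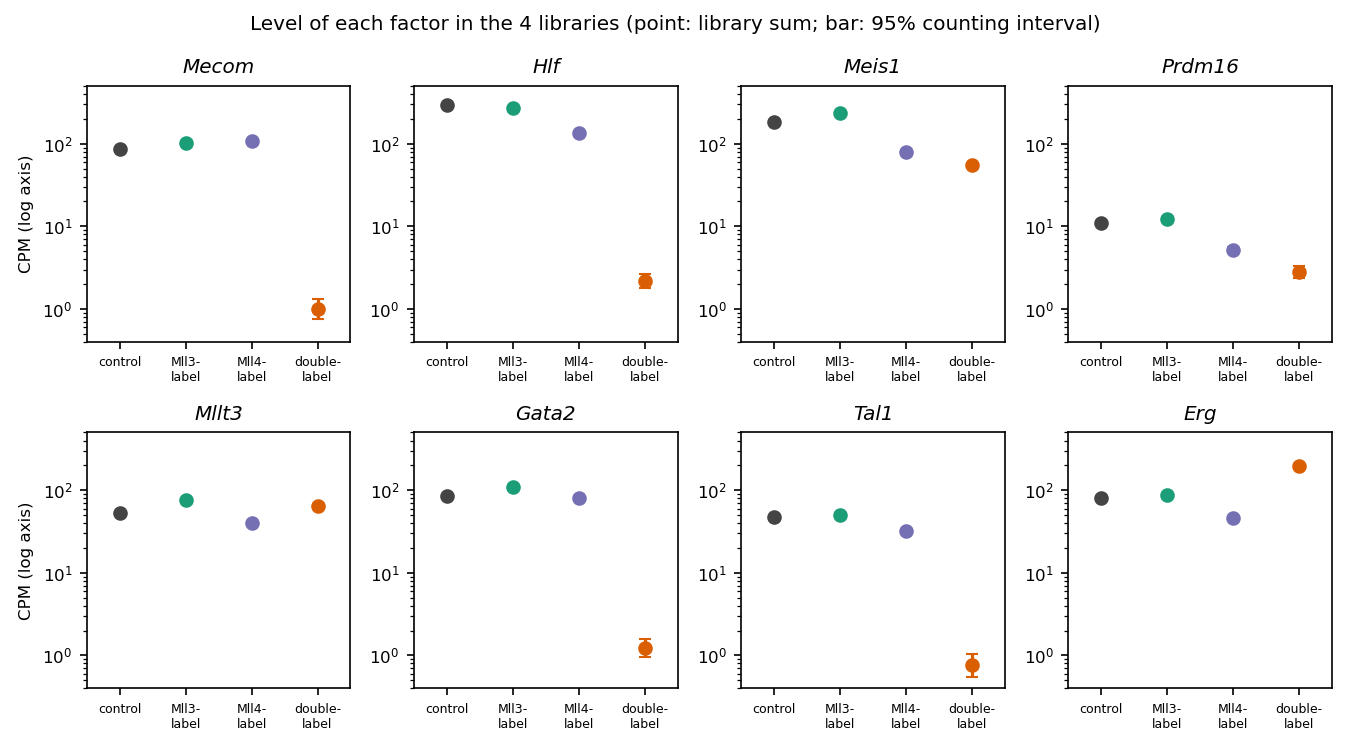
CPM of each of the 8 factors (vertical log axis) in the control, Mll3-label, Mll4-label and double-label libraries. Points are library sums and bars are 95% counting intervals, often smaller than the point. Mecom, Hlf, Gata2 and Tal1 lie between 0.768 and 2.21 in the double-label library, whereas Erg is highest there at 195.

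By a rule of size, at least 2-fold, 6 of 8 members were lower and 1 higher in the double-label library. Of the 10123 genes that averaged 5 CPM or more over the libraries, 13.7% were lower and 8% higher by the same rule. In the Mll4-label library 3 of 8 were lower (Hlf, Meis1 and Prdm16) and 0 higher, against 4.74% and 6.44% of all genes. In the Mll3-label library 0 of 8 passed in either direction, against 0.958% lower and 1.85% higher of all genes. The median log2 ratio of the 8 was 0.20, -0.69 and -3.95 in the Mll3-label, Mll4-label and double-label libraries. Over all genes tested it was 0.10, -0.11 and -0.12.

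The few UMIs of the missing factors in the double-label library lay in few cells. Only 24 of its 4748 cells held fewer than 10 UMIs of the B-lineage markers (among them Vpreb1, Igll1, Cd79a, Ebf1 and Pax5). These 24 cells carried 41 of the 51 Mecom UMIs (80.4%), 103 of 112 for Hlf (92.0%), 59 of 63 for Gata2 (93.7%) and 36 of 39 for Tal1 (92.3%). None of the 24 shared a barcode with another library. Within them Mecom was at 65.3 CPM (46.9 to 88.6), Hlf at 164 (134 to 199), Gata2 at 94.0 (71.6 to 121) and Tal1 at 57.4 (40.2 to 79.4). Control cells under the same B-marker limit had 88.2, 293, 86.2 and 48.4. The intervals of the 24 cells hold the control level for Gata2 and Tal1 and end just above it for Mecom, while Hlf was lower. In the other 4724 cells Mecom was at 0.199, Hlf at 0.179, Gata2 at 0.0797 (0.0217 to 0.204) and Tal1 at 0.0598 (0.0123 to 0.175) CPM. The last 2 rest on 4 and 3 UMIs.

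By contrast the UMIs of Erg, Mllt3, Meis1 and Prdm16 were spread over the B-marker cells of that library. The 24 cells held 0.495% of the Erg, 0.554% of the Mllt3, 3.51% of the Meis1 and 1.41% of the Prdm16 UMIs. B-marker cells of another library offer a like comparison, and the Mll3-label library had the most, 228. There Erg was at 92.5 CPM against 196 in the 4724 B-marker cells of the double-label library, a log2 difference of 1.09 (0.96 to 1.21). Mllt3 was at 21.6 against 64.4 (log2 difference 1.57, 1.32 to 1.85), and Meis1 at 35.1 against 54.3 (0.63, 0.42 to 0.84). Prdm16 was at 1.198, on 7 UMIs, against 2.79. Erg in the 47 control and 114 Mll4-label B-marker cells was at 33.0 and 18.7. Erg, Mllt3 and Meis1 were thus higher among B-marker cells of the double-label library than among those of the Mll3-label one. The 4 nearly missing factors went the other way: Mecom was at 11.98 against 0.199, Hlf at 32.2 against 0.179, Gata2 at 12.2 against 0.0797 and Tal1 at 8.05 against 0.0598. Median UMIs per B-marker cell were 23836.5 in the Mll3-label and 8905.5 in the double-label library. The part of depth and of B-marker level in these differences was not tested.

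Surface CD150 and CD48 were next used to sort cells into 4 quadrants, with 1 threshold per antibody for all libraries. CD150+CD48- cells, the stem-cell quadrant, were 25.4% of control, 47.96% of Mll3-label, 7.99% of Mll4-label and 40.4% of double-label cells. CD150-CD48+ cells, a progenitor quadrant, were 54.4%, 29.6%, 80.5% and 18.5%. Without centring of the antibody counts, CD150+CD48- cells were 18.6%, 41.4%, 6.26% and 4.42% in the same order. The double-label share thus depended on the antibody scale, though thresholds fitted in each library left it at 39.1%. With centring, 1702 of the 1917 double-label CD150+CD48- cells were also above the threshold of the CD135 antibody, against 124 of 1850 in the control. In the double-label library these gates held B-marker cells: 6 of 1917 CD150+CD48- cells, 2 of 1779 CD150-CD48-, 6 of 174 CD150+CD48+ and 10 of 878 CD150-CD48+ cells had fewer than 10 B-marker UMIs.

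In the control all 8 factors were higher in CD150+CD48- than in CD150-CD48+ cells, by different amounts. Mllt3 differed most, at 129 against 26.2 CPM (log2 2.30), followed by Prdm16 at 20.4 against 6.65 (1.62), Gata2 at 156 against 54.2 (1.53) and Mecom at 145 against 60.9 (1.25). These 4 were past 2-fold, as were 3.39% of all genes in that direction. Meis1 was at 266 against 145 (0.88), Tal1 at 67.9 against 38.0 (0.84), Hlf at 342 against 243 (0.49) and Erg at 91.7 against 75.2 (0.29). Hlf was highest not in the stem-cell quadrant but in CD150-CD48- cells, at 518. Gata2 was as high in CD150+CD48+ cells as in CD150+CD48- cells, at 156 in both, and lower in CD150-CD48- cells, at 86.3. The 8 factors therefore did not share 1 order over the 4 quadrants.

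**Figure D2:**
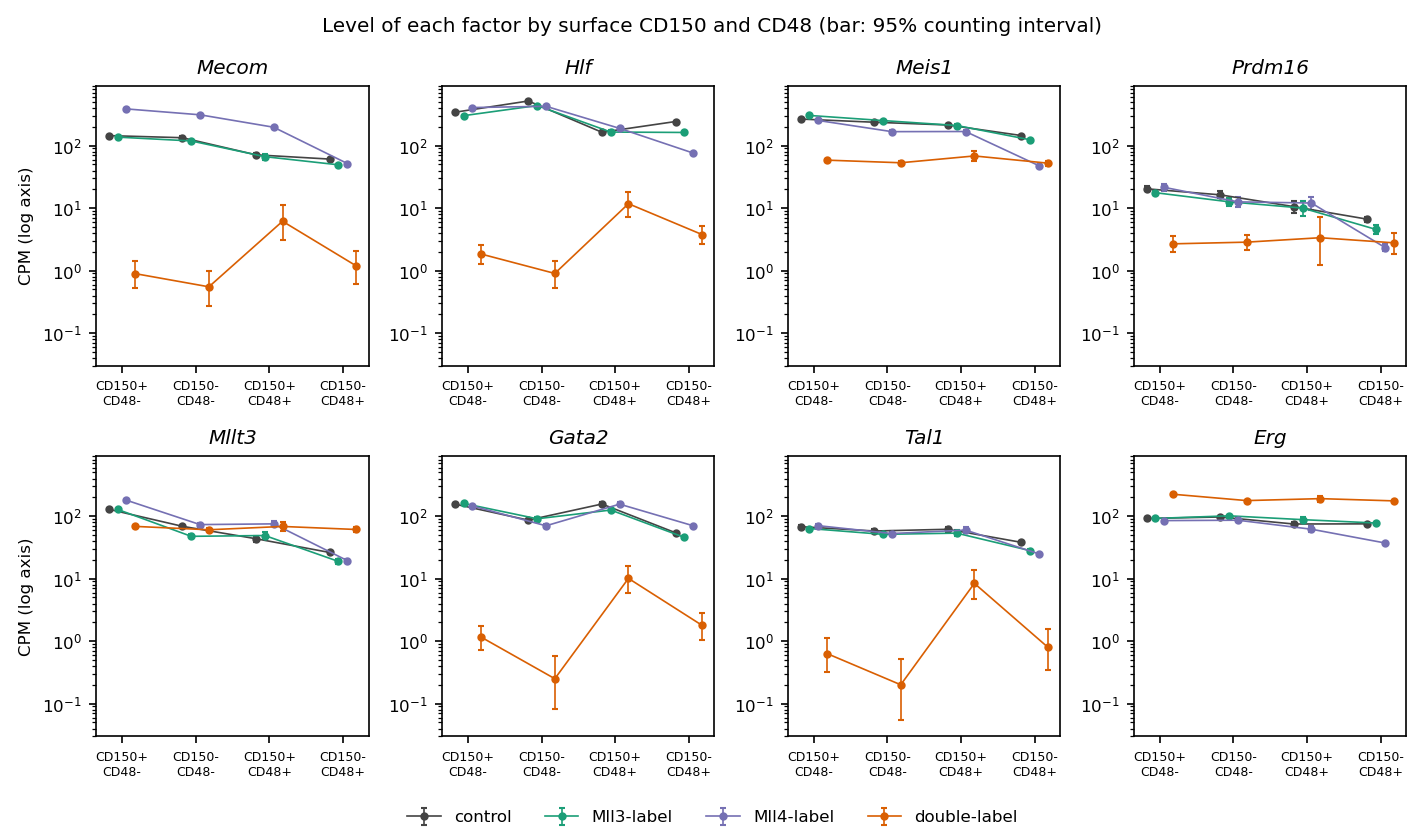
CPM of each factor (vertical log axis) in the CD150+CD48-, CD150-CD48-, CD150+CD48+ and CD150-CD48+ cells of the 4 libraries, with 95% counting intervals. Mecom of the Mll4-label library lies above the other libraries in 3 quadrants (387, 311 and 197), and Hlf, Meis1, Prdm16 and Erg of that library lie below the control in CD150-CD48+ cells.

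In the same contrast more members passed 2-fold in 2 of the mutant libraries than in the control. In the Mll3-label library 6 of 8 members (all but Hlf and Erg) were at least 2-fold higher in CD150+CD48- than in CD150-CD48+ cells, against 4.01% of all genes. For Mll4-label cells 8 of 8 were, against 8.2% of all genes, from 1.05 (Gata2) to 3.21 (Mllt3) on the log2 scale. The Gata2 contrast was narrower there than in the control. In the double-label library 0 of 8 were higher, against 0.395% of all genes. Only Hlf was 2-fold lower in its CD150+CD48- cells, at 1.84 against 3.78 (log2 -1.04, -1.74 to -0.34), against 2.37% of all genes. That direction turned without centring of the antibody counts, where Hlf was at 10.3 against 3.41 (log2 1.60, 0.78 to 2.38) and Hlf and Gata2 were 2-fold higher. Both Hlf intervals treat UMIs as independent, but 103 of the 112 Hlf UMIs of the double-label library lay in 24 cells. Of these 24, 6 were CD150+CD48- and 10 CD150-CD48+ with centring, so the intervals understate the uncertainty. With a threshold fitted in each library, 3 members (Mecom, Hlf and Tal1) were 2-fold lower.

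Within quadrants the Mll4-label library separated into 2 patterns. In CD150+CD48- cells 7 of the 8 factors were near the control: Hlf was at 407 against 342 CPM, Meis1 at 253 against 266, Gata2 at 146 against 156, Tal1 at 70.4 against 67.9 and Erg at 84.9 against 91.7. Prdm16 was at 21.5 against 20.4 and Mllt3 at 180 against 129 (log2 0.48, 0.40 to 0.56). None was 2-fold lower, against 2.62% of all genes. Mecom alone passed 2-fold, at 387 CPM in 383 cells against 145 in 1850 control cells, a log2 ratio of 1.42 (1.35 to 1.48), where 4.39% of all genes were that much higher. Mecom was also higher in CD150-CD48- cells (311 against 134, log2 1.22, 1.13 to 1.30) and in CD150+CD48+ cells (197 against 71.3, log2 1.47, 1.32 to 1.62). In CD150-CD48+ cells it was not, at 51.8 against 60.9. Over all cells of that library Mecom was 1.22-fold above the control. Markers of other cells and depth moved with these quadrants. In CD150+CD48- cells erythroid markers summed to 868 CPM against 19.6 in the control and neutrophil markers to 304 against 4.44. These sums lay in few cells: 2 of 383 held at least 10 UMIs of the erythroid list and 2 of the neutrophil list. In the control 1 and 0 of 1850 cells did. Plasma-marker cells were 17.2% against 0.216%, and the median was 24759 against 11743.5 UMIs per cell. In CD150+CD48+ cells erythroid markers summed to 3682 against 116, and in CD150-CD48- cells neutrophil markers to 1992 against 5.39. Cells with at least 10 such UMIs were 6.16% against 3.77% in the first and 4.70% against 0% in the second. After thinning to 3000 UMIs, Mecom was seen in 65.6% (60.6 to 70.4) of Mll4-label against 33.6% (31.5 to 35.8) of control CD150+CD48- cells. The shares were 51.3% against 30.7% in CD150-CD48- and 45.9% against 17.4% in CD150+CD48+ cells. In CD150-CD48+ cells they were 9.47% against 16.2%. At equal depth Mecom was thus seen in more Mll4-label than control cells in all quadrants but CD150-CD48+. The part of the erythroid and plasma markers in the Mecom values was not tested. With antibody counts that were not centred, the CD150+CD48+ ratio was 0.74 and no longer past 2-fold. In CD150-CD48- cells 0 of 8 were 2-fold lower and 1 higher, against 3.08% and 4.7% of all genes. In CD150+CD48+ cells it was again 0 and 1, against 1.89% and 5.24%.

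In the CD150-CD48+ cells of the Mll4-label library Hlf, Meis1 and Prdm16 were past 2-fold lower. There Hlf was at 76.0 against 243 CPM (log2 -1.68, -1.72 to -1.64), Meis1 at 47.6 against 145 (-1.61, -1.66 to -1.56) and Prdm16 at 2.34 against 6.65 (-1.50, -1.74 to -1.27). Erg was at 37.2 against 75.2 (-1.02, -1.08 to -0.95), just past 2-fold and just short of it (-0.996) without centring. So 4 of 8 were lower and 0 higher, against 6.52% and 7.36% of all genes. Gata2 was at 70.1 against 54.2, a log2 ratio of 0.37. Smaller differences stood in CD150-CD48- cells, with Hlf at -0.28 and Meis1 at -0.50. After thinning to 3000 UMIs, Hlf was seen there in 56.7% (51.6 to 61.7) against 70.9% (68.1 to 73.5) of cells and Meis1 in 35.0% (30.2 to 40.0) against 49.7% (46.7 to 52.7). Marker genes of other cells moved with this quadrant. The 5 granulocyte-monocyte progenitor markers (Elane, Prtn3, Ctsg, Mpo and Ms4a3) summed to 12447 CPM there against 1374 in the same control quadrant. The mast markers summed to 1018 against 8.02, and the macrophage-monocyte markers to 524 against 10.8.

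Those cells were then set aside, a choice made after seeing the data. Without mast-, macrophage-, T- and stroma-marker cells, Hlf in the CD150-CD48+ cells of the Mll4-label library was at a log2 ratio of -1.57, Meis1 at -1.70 and Prdm16 at -1.48. Erg moved to -0.89, and Tal1, at -1.13, passed 2-fold. Without cells holding granulocyte-monocyte or neutrophil markers as well, 763 cells remained in that quadrant, and Hlf was at -1.02, Meis1 at -1.74, Prdm16 at -1.24, Tal1 at -1.30 and Erg at -1.73. Hlf, Meis1 and Prdm16 were thus past 2-fold in every one of these selections, while Erg and Tal1 were past it in some. Mecom in CD150+CD48- cells was at 1.42 and 1.46 under the same selections. Over all cells, with quadrants weighted to their control shares, Hlf was at -0.48, Meis1 at -0.64 and Prdm16 at -0.35, so none of the 3 was 2-fold lower, and Mecom was at 0.97. Over all cells without those of mast, macrophage, T, stroma and plasma markers none of the 3 was 2-fold lower either (Hlf -0.77, Meis1 -0.98, Prdm16 -0.76), and with the plasma list not used only Meis1 was (-1.17).

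**Figure D3:**
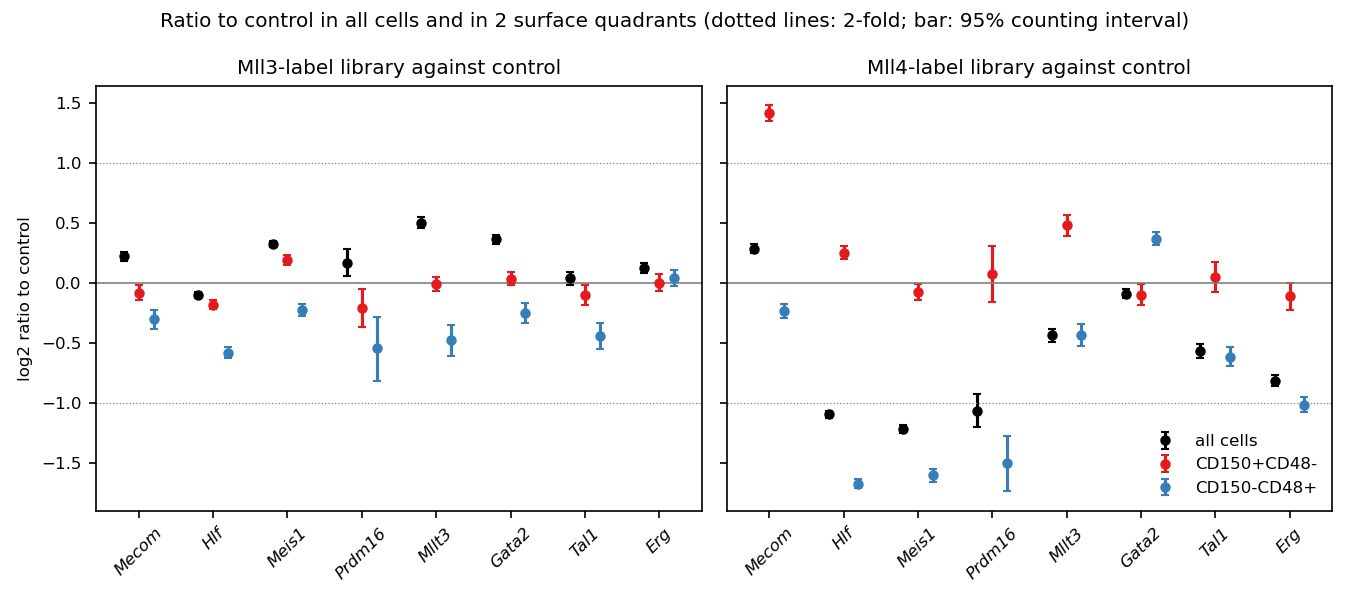
Log2 ratio to control of the 8 factors in the Mll3-label (left) and Mll4-label library (right), in all cells (black), CD150+CD48- cells (red) and CD150-CD48+ cells (blue), with 95% counting intervals and dotted lines at 2-fold. In the Mll4-label library Mecom in CD150+CD48- cells stands at 1.42, while Hlf, Meis1 and Prdm16 in CD150-CD48+ cells stand at -1.68, -1.61 and -1.50.

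Mast-marker cells carried 3824 of the 9717 Gata2 UMIs and 976 of the 3916 Tal1 UMIs of the Mll4-label library. In the 691 such cells Gata2, which mast cells need, was at 476 CPM and Tal1 at 121, against 80.5 and 32.4 over all its cells. Mecom was at 44.4, Hlf at 74.2 and Prdm16 at 2.36 in them. A mean that gives every cell the same weight put Gata2 at a log2 ratio of 0.75 over the whole library, where the summed counts gave -0.09. In CD150-CD48+ cells that mean gave 1.54, past 2-fold. Without the marker cells, plasma list not used, the whole-library value was -0.62. The direction for Gata2 in this library therefore changes with the cells counted.

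In the Mll3-label library the 8 factors stayed within 1.42-fold of the control over all cells. Mllt3 was highest above it (76.0 against 53.6, log2 0.50), then Gata2 (0.36), Meis1 (0.33), Mecom (0.22), Prdm16 (0.17), Erg (0.13) and Tal1 (0.04), with Hlf at -0.10. Within CD150+CD48- cells the ratios were between -0.21 (Prdm16) and 0.19 (Meis1), and Mllt3 was at 128 against 129 CPM. With quadrants weighted to control shares, Mllt3 was at -0.19, Gata2 at -0.07, Mecom at -0.18, Prdm16 at -0.33, Tal1 at -0.25 and Meis1 at 0.00. The part of the quadrant shares in the whole-library values was not tested further. In CD150-CD48+ cells 7 of 8 were below the control, from -0.23 (Meis1) to -0.58 (Hlf, 163 against 243), and Erg was at 0.04. That quadrant held 210 of the library's B-marker cells. Members 2-fold lower were 0 of 8 in each quadrant, against 2.52% of all genes in CD150+CD48-, 1.77% in CD150-CD48-, 1.32% in CD150+CD48+ and 0.998% in CD150-CD48+ cells.

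In the double-label library the 2-fold counts were nearly the same in every quadrant. The same 6 members were lower in each of the 4, against 14.3% of all genes in CD150+CD48-, 15.3% in CD150-CD48-, 12.9% in CD150+CD48+ and 13.2% in CD150-CD48+ cells. Erg was higher in CD150+CD48- cells (224 against 91.7 CPM), CD150+CD48+ cells (191 against 74.8) and CD150-CD48+ cells (175 against 75.2), and short of 2-fold in CD150-CD48- cells (177 against 97.0). For Mllt3 the sign depended on the quadrant, and its level was between 26.2 and 129 in the control quadrants and between 60.5 and 68.5 in the double-label ones. It was at 68.5 against 129 in CD150+CD48- cells and at 61.2 against 26.2 in CD150-CD48+ cells (log2 1.22, 1.09 to 1.35). Members higher were 1, 0, 1 and 2 of 8 in the same order of quadrants, against 8.63%, 8.03%, 10% and 8.41% of all genes.

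Gradients that need no threshold were read over 5 equal groups (quintiles) of the cells of a library, ranked by antibody. In the control, Mllt3 was at 24.6, 28.3, 37.1, 64.2 and 128 CPM from the lowest to the highest quintile of CD150. Gata2 was at 34.9, 48.1, 75.5, 127 and 163, and Prdm16 at 5.59, 7.99, 9.14, 14.1 and 19.8. In 6 of the 8 the level was higher at every step of CD150, whereas Hlf peaked in the fourth quintile (329) and Erg varied between 77.2 and 87.5. Over quintiles of CD48 the control levels went the other way, most for Mllt3 (143 in the lowest to 17.9 in the highest quintile) and least for Erg (96.0 to 62.7). In the Mll4-label library most factors differed little over the first 4 quintiles of CD150 and were high in the top quintile, as for Mecom at 72.4, 61.8, 57.5, 72.6 and 256. Over CD48, Mecom there went from 324 to 20.6 and Hlf from 385 to 43.1, where the control went from 154 to 37.9 and from 405 to 142. The lowest CD48 quintile of that library was thus above the control for Mecom and near it for Hlf, and the highest quintile was below it for both.

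**Figure D4:**
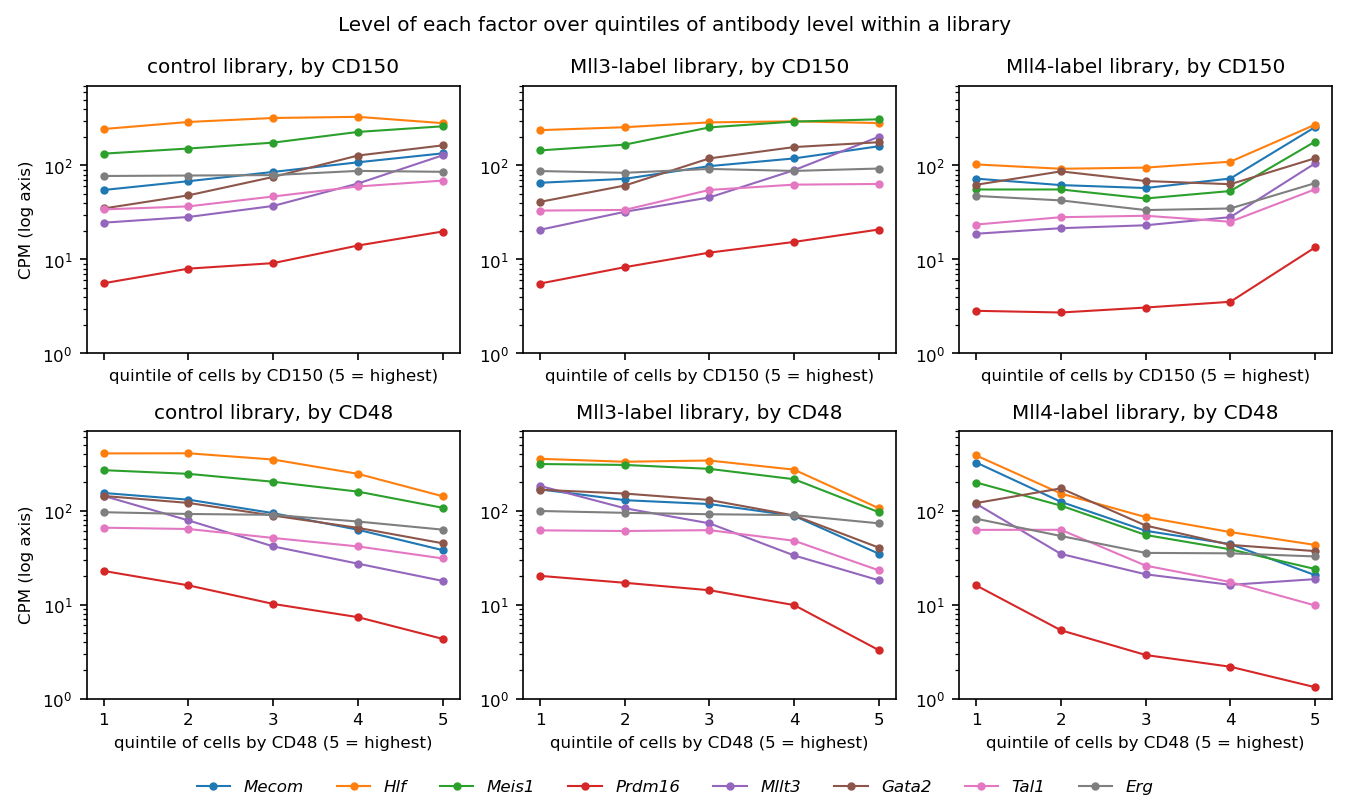
CPM of the 8 factors (vertical log axis) over quintiles of the cells ranked by CD150 (top) or CD48 (bottom), in the control, Mll3-label and Mll4-label libraries. Mllt3 climbs from 24.6 to 128 over CD150 in the control and Erg is nearly flat, while in the Mll4-label library most lines turn upward only in the top CD150 quintile.

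CD201 and CD117 gave further gradients. CD201 (Procr), a stem-cell surface protein, went with Hlf in the control, from 168 in its lowest to 515 CPM in its highest quintile, a gradient that CD150 did not show for Hlf. CD117 (Kit), also a mast-cell receptor, went with Gata2 in the Mll4-label library, from 22.8 in the lowest to 264 in the highest quintile, and from 50.2 to 122 in the control.

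How many of the factors were seen in the same cell was counted after thinning each cell to 3000 UMIs, which makes depth equal and leaves out 14 control, 17 Mll3-label, 134 Mll4-label and 33 double-label cells. At that depth Hlf was seen in 52.3% of control, 50.3% of Mll3-label, 23.4% of Mll4-label and 0.191% of double-label cells. Mecom was seen in 22.9%, 26.8%, 18.6% and 0.0636%, and Erg in 21.9%, 22.7%, 10.3% and 46.4%. As a background, the 228 B-marker cells of the Mll3-label library showed Hlf in 7.02%, Mecom in 3.07%, Gata2 in 2.19% and Tal1 in 1.75% of cells. Their median was 23836.5 UMIs before thinning against 15381 for the whole library. The double-label shares of Hlf and Mecom lie below even these levels.

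Cells with at least 4 of the 8 factors were 12.4% of control (11.6 to 13.2), 17.2% of Mll3-label (16.2 to 18.1), 6.89% of Mll4-label (6.18 to 7.66) and 0.0636% of double-label cells (0.0131 to 0.186). Within CD150+CD48- cells the shares were 26.1%, 25.9%, 35.7% and 0.0525%. In CD150-CD48+ cells they were 5.07%, 4.56%, 2.43% and 0.114%. The Mll3-label share in each of these quadrants was within the control's interval, and the Mll4-label library was above the control in the first and below it in the second. Cells with none of the 8 were 13.3% of control, 13.6% of Mll3-label, 44.2% of Mll4-label and 38.0% of double-label cells. Among Mll4-label cells detection of Hlf went with that of Mecom. Hlf was seen in 58.9% of the 868 cells with Mecom and in 15.3% of those without. In the control these shares were 62.3% and 49.4%. Gata2 was seen in 57.7% of Mll4-label cells with Tal1 and in 16.6% of those without. Not all pairs differed so, as Mllt3 was seen in 11.4% of Mll4-label cells with Tal1 and in 10.7% of those without.

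**Figure D5:**
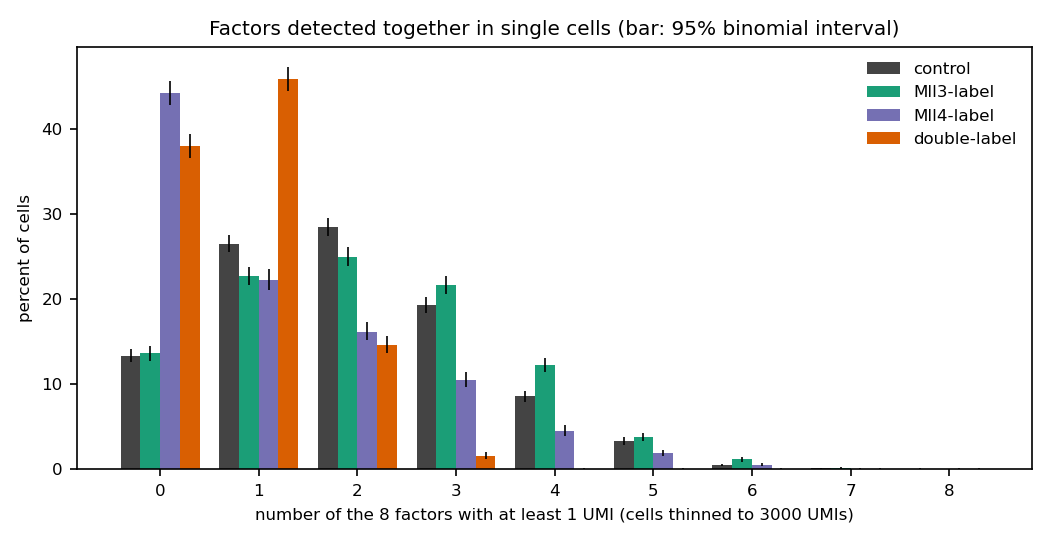
Percent of cells (vertical axis) by the number of the 8 factors with at least 1 UMI, after thinning every cell to 3000 UMIs, in the 4 libraries, with 95% binomial intervals. Mll4-label cells pile up at 0 (44.2%), and double-label cells at 0 and 1 (38.0% and 45.8%).

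Known partners of the 8 factors were read from a list of 20 genes, of which 19 averaged 5 CPM or more. In the double-label library 3 of the 19 were at least 2-fold lower and 1 higher, shares near the 13.7% and 8% of all genes. The lower ones were Lmo2 (10.0 CPM, log2 ratio -6.17) and Lyl1 (2.09, -5.80), which join Tal1 on DNA, and the corepressor Cbfa2t3 (7.44, -4.25). Other genes of the list in the same network did not pass, with Runx1 at -0.46, Ldb1 at -0.52, Fli1 at -0.89 and Tcf3 at 0.93. Aff1, an elongation-complex scaffold that binds Mllt3, was higher (43.2, 1.27). Gata1, under the minimum, was at 0.118 (-5.38). In the Mll4-label library Lmo2 (338, -1.09) and Hoxa9 (31.4, -1.32) were lower and Aff1 higher (36.9, 1.05), where 4.74% of all genes were lower and 6.44% higher. In the Mll3-label library 0 of 19 passed, against 0.958% and 1.85%. The median log2 ratio of the 19 was 0.10, -0.24 and -0.06 in the Mll3-label, Mll4-label and double-label libraries.

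A second list of 20 further stem- and progenitor-cell factors had 18 past the minimum. In the double-label library 11 of 18 were lower and 2 higher, against 13.7% and 8% of all genes. Nkx2-3 (0.335 CPM, log2 ratio -6.81), Ikzf2 (1.48, -6.19), Nfe2 (2.22, -5.67), Gfi1b (0.197, -5.66) and Cebpa (0.413, -5.12) were lowest against the control. Mycn (-4.91), Tcf15 (-4.10), Zfpm1 (-3.11), Etv6 (-2.05), Zfp36l2 (-1.35) and Foxo3 (-1.21) were the other lower ones. Id3, an inhibitor of E-proteins such as those that pair with Tal1, was at 532 against 1.45 in the control (8.51), and Id1 was at 11.4 (2.53). Among Mll4-label cells 4 of 18 were lower, against 4.74% of all genes: Zfpm1, a Gata cofactor (26.0, -1.79), Tcf15 (5.92, -1.34), Nkx2-3 (15.7, -1.30) and Gfi1b (4.49, -1.22). The 4 higher ones, against 6.44%, were Id1 (10.1, 2.35), the granulocyte-monocyte factors Cebpa (40.2, 1.45) and Gfi1 (31.9, 1.32), and Klf6 (65.7, 1.39). In the Mll3-label library 0 were lower and 4 higher, against 0.958% and 1.85% of all genes: Id3 (9.49, 2.71), Egr1 (89.4, 1.70), Id1 (4.91, 1.31) and Mycn (68.9, 1.30). Ndn and Hoxb5 did not reach the minimum; Ndn was at 1.85 on the log2 scale in the Mll3-label and Hoxb5 at -3.81 in the double-label library. The median log2 ratio of these 18 was -0.01, -0.23 and -1.70 in the Mll3-label, Mll4-label and double-label libraries.

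Genes with the most similar pattern were sought over the 16 groups of library and quadrant, by Pearson correlation of log2(CPM + 5) among 5957 genes. The groups share 4 libraries, so the values describe these groups only. Ccnd2 (0.989) and Lgals3bp (0.985) were most like Mecom, Nfic (0.996) and Gcnt2 (0.993) most like Hlf, and S100a1 (0.990) and Fermt3 (0.986) most like Gata2. Angpt1 (0.992), a ligand of the Tie2 receptor, and Plscr1 (0.987) were most like Tal1, and Gata2 and Tal1 were like each other (0.985). Car2 (0.983) and Ahcyl1 (0.981) were most like Meis1, and Samd12 (0.981) and Smarca2 (0.973) most like Prdm16. Erg stood with Vgll4 (0.974) and Eya1 (0.972) and was negatively correlated with Gata2 (-0.79) and Mecom (-0.72). The groups include the double-label ones, where Erg was high and Gata2 and Mecom were almost missing. Within the control, Erg, Gata2 and Mecom were all higher in CD150+CD48- than in CD150-CD48+ cells. Mllt3 had the loosest matches, Prxl2a and Nipsnap2 at 0.896 each, and correlated with Hlf at only 0.12.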

How the data were processed

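Gene and antibody-tag counts per cell barcode were deposited by the authors for 4 libraries, as raw counts of UMIs with no normalization, per the file headers. Cell Ranger 6.1.1 and the mm10 build are named in the submitters' processing notes. A barcode was kept when it showed 1000 genes or more and no more than 10% of its UMIs were mitochondrial. Kept UMIs were summed per library and divided by the library total. Ratios used 0.5 added UMIs and exact conditional 95% intervals, levels exact Poisson ones and shares exact Clopper-Pearson ones. All cover counting error only. No test was run, since each group had 1 library, and at least 2-fold served as the rule of size. Antibody counts were turned into centred natural-log ratios, and 1 Gaussian-mixture threshold per antibody gave the quadrants. Doublets were scored with Scrublet in scanpy 1.11.5, which called 3, 3, 171 and 1 cells in the control, Mll3-label, Mll4-label and double-label libraries. Those calls were under 0.5% of cells in 3 libraries, so none were removed, and leaving out the highest scores was an alternative. The steps were tested on simulated data. The members and lists were chosen with earlier results of these data known. All 8 members were named, with list genes past 2-fold in a library and, per member, the 2 most correlated genes. Python 3.11.15, numpy 2.4.6, scipy 1.17.1, pandas 2.3.3, scikit-learn 1.9.0, R 4.3.3 and edgeR 4.0.16 (for TMM factors only) were used. Gene IDs were matched to the GRCm38 annotation for 32158 of 32285 genes. Protein sequences were not used here. The B-lineage list is named in part, since 1 of its 8 markers is not reported here.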

Additional observations from a re-analysis of the deposited data

Results flagged for a closer look

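For Hlf the contrast between CD150+CD48- and CD150-CD48+ cells had opposite signs across libraries on the centred antibody scale. The log2 ratio was 0.49 in the control, 0.89 in the Mll3-label and 2.42 in the Mll4-label library, and -1.04 in the double-label library. Without centring the values were 0.39, 0.80, 2.41 and 1.60 in the same order, all of 1 sign. With 1 library per group this difference was not tested. The value of -1.04 rests on 35 and 38 UMIs. Nearly all cells of the double-label library carried B-lineage markers, but these held 9 of its 112 Hlf UMIs. The other 103 lay in 24 cells with fewer than 10 B-marker UMIs, of which 6 were CD150+CD48- and 10 CD150-CD48+ on the centred scale. The contrast in this library thus follows where a few cells fall.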

How the results depend on the processing

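No paired analysis was possible because each group had 1 library. Of the member counts over all cells, 66 of 72 alternatives stayed within 1.5 times the reported count, as did 97 of 104 in quadrants. The log2 ratios were less stable: 102 of 240 alternatives were tallied as moved and 138 as the same. Hlf in the Mll4-label library, for instance, lay between -1.23 and -0.48. Over all cells no log2 ratio to control past 2-fold changed sign. Smaller ratios did in at least 1 setting. In the Mll4-label library these were Mllt3, Gata2 and Tal1, and in the Mll3-label library Mllt3, Gata2, Mecom, Prdm16 and Tal1. In the Mll4-label library Mllt3 went from -0.44 to 0.25 with quadrants weighted to control shares, and Tal1 from -0.57 to 0.02 with equal weight per cell. The 3 members lower in the Mll4-label library became 1 with the stricter cell filter, 0 with cells of other types' markers left out, 1 with the plasma list not used (chosen after seeing the data), 0 with quadrants weighted to control shares and 0 at 4-fold. The 1 member higher in the double-label library became 0 at 4-fold. Without centring, members higher in the double-label library became 2 (Hlf and Gata2) in CD150+CD48- over CD150-CD48+ cells, where Hlf turned from -1.04 to 1.60 and members lower went from 1 to 0, and 1 in CD150-CD48- cells, and in the Mll4-label library 0 in CD150+CD48+ cells. With thresholds fitted in each library, members lower in double-label CD150+CD48- than CD150-CD48+ cells became 3. Alternatives chosen after seeing the data gave 2 members lower in Mll3-label CD150-CD48+ cells and 2 higher in double-label CD150+CD48+ cells without granulocyte-monocyte and neutrophil marker cells. With equal weight per cell, 1 was higher in double-label CD150-CD48- and 1 in Mll4-label CD150-CD48+ cells. The share of cells with at least 4 members depends on depth by construction. At 1500 UMIs, at 6000 UMIs and without thinning it was 2.31%, 37.8% and 78.9% in the control and 3.72%, 46.1% and 80.5% in the Mll3-label library. It was 1.46%, 20.9% and 38.8% in the Mll4-label and 0%, 0.441% and 1.201% in the double-label library. Median-of-ratios scaling moved the median of all genes by 0.106 (log2) in the double-label library. For the counts over all cells and in quadrants the cause was not tested. In the double-label library Mecom, Hlf, Gata2 and Tal1 rest on 39 to 112 UMIs, which limits their precision.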
